A study of Homo sapiens with 12 samples.

Results

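Ribosome biogenesis and RNA polymerase I (Pol I) genes were followed in DLD1 cells, an established human colon cancer line, after 1 h with ligands of the AHR (aryl hydrocarbon receptor), a transcription factor that small molecules switch on. The set holds 40 genes, chosen by symbol from the 26485 gene symbols in the files: 6 genes of Pol I transcription, 7 of the small nucleolar ribonucleoproteins (snoRNPs), 6 of the small subunit (SSU) processome, 5 of 40S maturation, 12 of 60S assembly and 4 abundant or less specific nucleolar proteins. All 40 had enough reads to be tested among 13619 tested genes. The groups were TCDD, a dioxin and strong AHR agonist, Kyn (kynurenine, made from tryptophan and known as an agonist of the body's own), CH (CH223191, a synthetic AHR antagonist) and DMSO, the vehicle. Each had 3 libraries, and the series' design text gives 10 µM for each chemical. All cells are of 1 line with no genetic change named, and the protocol text names DMSO, TCDD and Kyn but not CH, whose time comes from the series' title.

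Ribosomes are assembled in the nucleolus. Pol I transcribes a long precursor RNA from repeated genes, which snoRNPs modify chemically or help to cut. With the SSU processome it is folded and cut into a small (40S) and a large (60S) subunit precursor, which further factors finish. Most of these factors are encoded by genes that RNA polymerase II transcribes and that the MYC transcription factor is known to activate in growing cells, colon cancer among them. The measurements are of the messenger RNAs of these factors and not of ribosome production itself.

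Reads on genes ranged from 21397703 to 28247146 per library, and edgeR's common coefficient of biological variation was 3.22%. Nothing in the labels ties the libraries of a group to separate cultures, so p-values measure the spread between these libraries, which may be technical. CYP1A1, a classical AHR target, had 435, 438 and 409 CPM (reads scaled to the library's total on genes) with TCDD, 9.16, 11.2 and 10.1 CPM with Kyn and 0.396, 0.428 and 0.736 CPM with CH, against 3.05, 3.29 and 3.30 CPM in DMSO. Of 10 colon epithelium markers 9 reached 1 CPM (CDX1, a homeobox factor, averaged 0.0476 CPM). Of the fibroblast markers 0 of 8 did, with COL1A1 the highest at a mean of 0.374 CPM. Of the immune markers 3 of 9 did (LYZ at 6.09 CPM, CD68 at 3.22 CPM and CD14 at 1.47 CPM), and of the endothelial markers 2 of 8 (ESAM at 3.99 CPM and CLDN5 at 1.29 CPM). In each of these 3 lists 1 marker was at 0 in all 12 libraries (DCN, CD3D and KDR).

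The 40 genes were well expressed. They took 0.998 to 1.07% of the reads on genes in each library. On TPM, a scale that also divides by transcript length, their median in DMSO was 110 TPM against 20.2 TPM over all tested genes, and 38 of the 40 lay above that median, 14 of them above the 90th percentile. NPM1, a nucleolar chaperone of ribosomal proteins, was the highest at 4599 ± 38.9 TPM (SD, n = 3), and NCL (nucleolin), which binds precursor ribosomal RNA, followed at 1624 ± 65.4 TPM. The lowest were WDR12 at 18.3 ± 0.414 TPM and PPAN at 2.41 ± 0.269 TPM, both 60S assembly factors. The WDR12 value depends on the length used, a canonical transcript of 8068 bases. Without division by length, WDR12 had a mean of 58.7 CPM in DMSO, above BYSL (57.7), POLR1C (52.7) and POLR1E (52.3). PPAN had 44 to 69 reads per library, and its exons overlap those of P2RY11 and of a read-through gene, so its count is uncertain.

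Against DMSO, 20 of the 40 genes fell with CH (32.8% of all tested genes were called), 9 fell with TCDD (11.7%) and 0 passed with Kyn (0.294%). A call here is an adjusted p under 0.05 in edgeR's quasi-likelihood F test, adjusted by Benjamini-Hochberg over all tested genes. With CH 0 of the 40 rose, and over all tested genes 16.9% were lower and 15.9% higher. With TCDD 0 rose too, and over all tested genes 5.83% were lower and 5.91% higher. The 3 libraries of CH did not overlap those of DMSO in 28 of the 40 genes, where 43.4% of all tested genes had no overlap, and those of TCDD did not in 17, where 27.8% of all tested genes had none. At an unadjusted p under 0.05 the members numbered 27 with CH (42.1% of all tested genes), 16 with TCDD (24.8%) and 4 with Kyn (6.70%), and DESeq2 called 0 with Kyn. Without DMSO replicate 1, 5 of the 40 were called with TCDD, while all genes called went from 1599 to 851. The median log2 fold change of the 40 was -0.11 with CH, -0.06 with TCDD and -0.01 with Kyn, against 0.00 over all tested genes in each comparison. Of the 40, 36 had a negative sign with CH, 27 with TCDD and 25 with Kyn, where 49.7%, 49.7% and 51.9% of all tested genes did. All 3 comparisons share the DMSO libraries, and each comparison's values are given on their own. In bulk RNA, fewer cells that express a gene and less of its RNA per cell cannot be told apart.

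**Figure D1:**
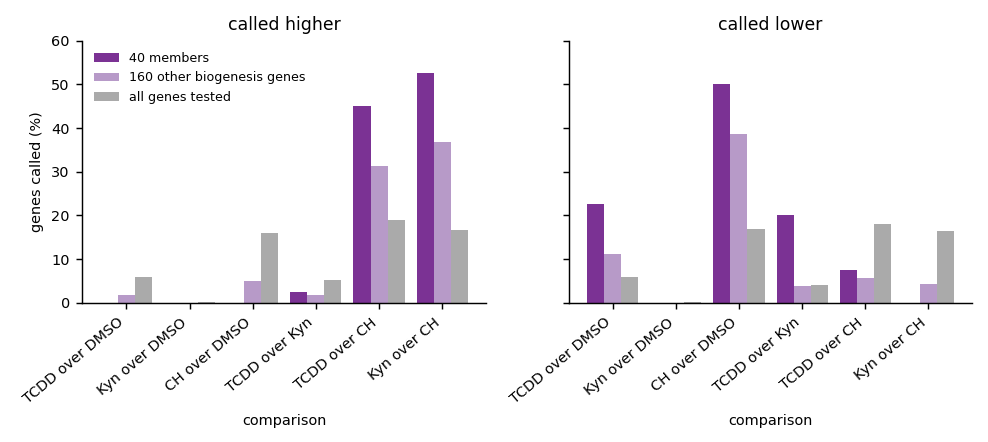
Share of genes called higher (left) or lower (right; vertical axes in percent, edgeR adjusted p under 0.05) in the 3 comparisons with DMSO and the 3 between compounds, with bars for the 40 ribosome biogenesis and Pol I genes, 160 further ribosome biogenesis genes and all 13619 tested genes. Against DMSO, 20 of the 40 were lower with CH, 9 with TCDD and 0 with Kyn, and 0 were higher.

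The median deviation of the 40 genes from their DMSO mean (log2 CPM) was -0.06, -0.06 and -0.05 in the TCDD libraries, 0.00, 0.00 and -0.01 in the Kyn libraries and -0.12, -0.11 and -0.13 in the CH libraries, against -0.01, -0.01 and 0.01 in the DMSO libraries. The CH and TCDD libraries lay below every DMSO library on this measure, CH the lowest, and the Kyn libraries lay among the DMSO values. Across the 4 groups together 29 of the 40 genes differed in a joint test, where 43.6% of all tested genes did. The other 11 were NOP56, NOP58, DKC1, WDR12, POLR1A, POLR1C, UTP15, NOLC1, PPAN, NCL and NPM1.

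**Figure D2:**
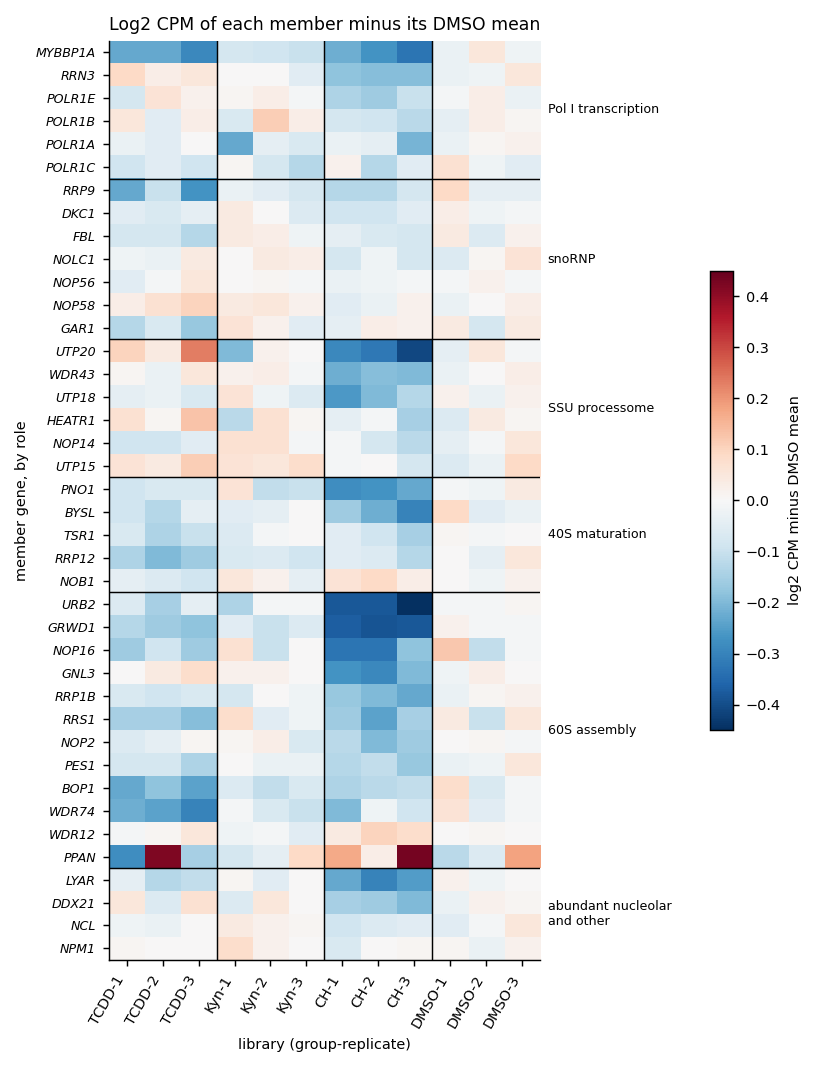
Heat map of the 40 genes (rows, grouped by role) in the 12 libraries (columns, TCDD, Kyn, CH and DMSO), coloured by log2 CPM minus the gene's DMSO mean, with the colour scale ending at 0.45 on each side and values past it drawn in the end colour. The CH columns are the most often below 0, with URB2, GRWD1 and UTP20 furthest down, and the TCDD columns are low in MYBBP1A, WDR74 and BOP1.

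The promoters of 3 of the genes are shown, chosen because GRWD1 and UTP20 are among the largest falls with CH and MYBBP1A fell with both compounds. They are the 250 bases before the RefSeq start (GRCh38.p14), written 5′ to 3′ on the strand of the gene, with capitals marking a match to GCGTG on either strand (CACGC on the reverse), the core that the AHR complex binds, or to CACGTG, the E-box that MYC binds. GRWD1 is at chr19:48445733-48445982 on the plus strand, UTP20 at chr12:101279855-101280104 on the plus strand and MYBBP1A at chr17:4555385-4555634 on the minus strand.
GRWD1: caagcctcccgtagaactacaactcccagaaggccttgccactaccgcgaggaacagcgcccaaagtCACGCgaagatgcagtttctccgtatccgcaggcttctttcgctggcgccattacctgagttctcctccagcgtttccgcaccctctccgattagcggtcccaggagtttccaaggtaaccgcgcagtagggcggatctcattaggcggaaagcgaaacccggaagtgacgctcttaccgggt
UTP20: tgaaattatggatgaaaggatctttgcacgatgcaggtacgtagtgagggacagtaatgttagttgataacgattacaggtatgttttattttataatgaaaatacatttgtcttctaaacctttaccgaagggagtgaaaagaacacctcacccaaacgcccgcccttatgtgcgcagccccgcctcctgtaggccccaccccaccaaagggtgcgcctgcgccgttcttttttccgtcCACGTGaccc
MYBBP1A: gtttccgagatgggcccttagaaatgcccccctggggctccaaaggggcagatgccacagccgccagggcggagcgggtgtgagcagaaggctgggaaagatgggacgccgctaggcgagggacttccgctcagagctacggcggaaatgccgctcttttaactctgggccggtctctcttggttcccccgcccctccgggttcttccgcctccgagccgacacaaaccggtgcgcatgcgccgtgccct
GRWD1 held 1 core match, on the reverse strand 183 bases before the RefSeq start, UTP20 held an E-box 10 bases before its start, and MYBBP1A held neither. The GENCODE start of GRWD1 (48445841) lies inside its window, so part of the window is within that gene model and the distance depends on the start used. Promoters of 32 of the 40 genes were matched by symbol, and those of NOP58, RRS1, BOP1, POLR1E, NOLC1, RRP12, RRP1B and URB2 were not used here. CACGTG was in 2 of the 32 (UTP18 and UTP20, 6.25%), against 8.82% of 10047 promoters of tested genes and 6.49% of all 27305. GCGTG was in 18 of the 32 (56.2%), against 45.4% and 31.9%, and the longer TNGCGTG, which overlaps it, in 2 (FBL and GRWD1, 6.25%), against 6.04% and 4.53%. The members' promoters had a median GC of 61.4% against 58% over all, and the part of GC content in the share of matches was not tested. A match is a run of letters and does not show binding.

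Among the Pol I genes 3 of 6 fell with CH (16.9% of all tested genes) and 1 with TCDD (5.83%). In lists this small, 1 call says little about a role. MYBBP1A, a nucleolar MYB-binding protein that acts in Pol I transcription and precursor processing, fell with both. Its level was 118, 118 and 113 CPM with TCDD and 119, 115 and 110 CPM with CH, against 136, 143 and 136 CPM in DMSO. Neither the TCDD nor the CH libraries overlapped DMSO. Kyn libraries, at 131, 130 and 129 CPM, lay between them. The log2 fold change was -0.25 ± 0.0370 with TCDD (SE, adjusted p = 8.2e-06) and -0.27 ± 0.0369 with CH (adjusted p = 3.5e-07), and the TCDD value was also below Kyn (-0.16, adjusted p = 0.0044). RRN3, the factor that brings Pol I to its promoter and is known to respond to growth signals, had 58.0, 57.3 and 57.4 CPM with CH, against 64.4, 64.5 and 67.9 CPM in DMSO. It fell with CH by 0.19 on the log2 scale, and the TCDD libraries, at 69.8, 66.8 and 68.0 CPM, were not lower than DMSO. TCDD exceeded CH (log2 difference 0.24 ± 0.0413, adjusted p = 1.3e-05). POLR1E, a Pol I subunit, fell with CH (-0.14), a call that ended without DMSO replicate 2 (adjusted p = 0.065), CH replicate 1 (0.051) or CH replicate 2 (0.085) and when libraries were scaled by their totals alone (0.056). The largest subunit POLR1A (-0.09 with CH) and the second largest POLR1B (-0.10) did not pass, nor did POLR1C (-0.05), which Pol I shares with RNA polymerase III. The CH libraries of POLR1A and POLR1B did not overlap DMSO. POLR1B was called lower with CH in 5 of 20 alternatives and POLR1A in 2. For both these included the removal of GC and length trends (adjusted p = 0.0040 for POLR1B and 0.0096 for POLR1A).

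Of the 7 snoRNP genes, 0 passed with CH, where 32.8% of all tested genes were called. With TCDD 1 fell (5.83% of all tested genes), RRP9, a protein of the U3 snoRNP. It had 46.6, 51.0 and 45.4 CPM with TCDD, against 58.2, 53.1 and 53.1 CPM in DMSO, without overlap (log2 fold change -0.20 ± 0.0479, adjusted p = 0.0040). The call ended without DMSO replicate 1 (adjusted p = 0.057). NOP56 and NOP58, the core proteins of box C/D snoRNPs, had log2 fold changes of -0.01 and 0.07 with TCDD and -0.02 and -0.02 with CH. DKC1, the pseudouridine synthase of box H/ACA snoRNPs, and NOLC1, a chaperone of snoRNPs, were at -0.06 and -0.01 with TCDD and -0.08 and -0.06 with CH. FBL (fibrillarin), the methyltransferase of box C/D snoRNPs, had 172, 172 and 166 CPM with TCDD against 187, 187 and 180 CPM with Kyn, and these groups differed (-0.11, adjusted p = 0.032), though against DMSO FBL did not pass with TCDD (-0.10). In 3 of 20 alternatives FBL was called lower with TCDD than in DMSO. GAR1, of the box H/ACA particle, was lower with TCDD than with Kyn (-0.14, adjusted p = 0.048) and than with CH (-0.13, adjusted p = 0.024). The second of these ended without TCDD replicate 1 (0.059), TCDD replicate 3 (0.10), CH replicate 2 (0.090) or CH replicate 3 (0.066). RRP9 was lower with TCDD than with Kyn too (-0.15, adjusted p = 0.047). All 3 differences between TCDD and Kyn ended without TCDD replicate 1 or 3 or Kyn replicate 1 or 2 (highest adjusted p = 0.25), and those of GAR1 and RRP9 also without DMSO replicate 3, CH replicate 1 or CH replicate 2, and that of RRP9 without Kyn replicate 3 (highest 0.056). With GC and length trends removed they ended too, at -0.04 for FBL (adjusted p = 0.58), -0.07 for RRP9 (0.42) and -0.11 for GAR1 (0.090).

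In the SSU processome, the large complex on the 5′ part of the precursor, 3 of 6 genes fell with CH and 0 with TCDD. Over all tested genes 16.9% were lower with CH and 5.83% with TCDD. UTP20 (chr12:101280105-101386618, plus strand, hg38), a large scaffold protein whose promoter holds the E-box shown above, had 136, 131 and 149 CPM with TCDD, 111, 128 and 127 CPM with Kyn and 104, 102 and 95.4 CPM with CH, against 123, 131 and 127 CPM in DMSO. CH was lower than every library of the other groups, and TCDD was the highest group, though it overlapped DMSO. The log2 fold change was -0.34 ± 0.0476 with CH (adjusted p = 6.7e-07), 0.12 with TCDD, which did not pass against DMSO, and 0.47 ± 0.0477 for TCDD over CH (adjusted p = 7.6e-10), the largest of the 40 genes' differences in the 3 comparisons between compounds. Against DMSO, UTP20 was called higher with TCDD in 4 of 20 alternatives (lowest adjusted p = 0.019, without Kyn replicate 1). TCDD was also above Kyn (0.18, adjusted p = 0.0089), a call that ended without TCDD replicate 3 (0.15) or Kyn replicate 1 (0.11) and with GC and length trends removed (0.09, adjusted p = 0.096). WDR43, a part of the same complex, had 137, 140 and 138 CPM with CH, against 156, 160 and 163 CPM in DMSO (-0.21 ± 0.0344, adjusted p = 1.4e-05). UTP18, another WD-repeat protein, had 81.4, 85.4 and 89.5 CPM with CH, against 99.0, 95.5 and 99.0 CPM in DMSO (-0.20). HEATR1, UTP15 and NOP14, also parts of the processome, had log2 fold changes of -0.07, -0.03 and -0.07 with CH that did not pass, though HEATR1 was higher with TCDD than with CH (0.14, adjusted p = 0.0082), a call that ended without TCDD replicate 3 or CH replicate 3 (0.083 each).

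Of the 40S maturation genes 3 of 5 fell with CH (16.9% of all tested genes) and 2 with TCDD (5.83%). PNO1, a cofactor of the NOB1 nuclease, had 88.5, 89.1 and 91.5 CPM with CH, against 107, 106 and 111 CPM in DMSO (log2 fold change -0.26 ± 0.0408, adjusted p = 4.2e-06), and the groups did not overlap. BYSL (bystin), which works in the same pathway, fell with CH too (-0.22), at 51.5, 49.4 and 46.9 CPM against 61.2, 55.5 and 56.3 CPM in DMSO. NOB1 itself, the nuclease that makes the last cut of 18S ribosomal RNA, did not (0.06), and it was lower with TCDD than with CH (-0.12, adjusted p = 0.0065). RRP12, an export factor, fell with TCDD. It had 113, 109 and 112 CPM with TCDD against 124, 121 and 129 CPM in DMSO (-0.17 ± 0.0366, adjusted p = 0.0021), while with CH it was at -0.08 and did not pass. TSR1, a GTPase-like factor, had 166, 158 and 163 CPM with TCDD and 168, 164 and 158 CPM with CH, against 176, 174 and 174 CPM in DMSO. TSR1 fell with both (-0.10 each, adjusted p = 0.044 with TCDD and 0.029 with CH), and its calls ended in 9 of 20 alternatives with TCDD and in 5 of 20 with CH. These included leaving out any DMSO library, TCDD replicate 2 or 3, Kyn replicate 2 or CH replicate 2 for TCDD (highest adjusted p = 0.16), and DMSO replicate 1 or 3 or CH replicate 2 or 3 for CH (highest 0.15).

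Of the 60S assembly genes 9 of 12 fell with CH (16.9% of all tested genes) and 5 of 12 with TCDD (5.83%). URB2 (chr1:229626247-229660200, plus strand, hg38), a nucleolar protein of early 60S assembly whose role is best known in yeast, had the largest fall of the 40 with CH. It had 58.2, 58.1 and 53.7 CPM with CH, against 75.6, 75.4 and 76.5 CPM in DMSO, and the TCDD and Kyn libraries (68.4 to 75.4 CPM) all lay above CH. The log2 fold change with CH was -0.42 ± 0.0443 (adjusted p = 2.6e-09), so its level fell by 25.1%, and TCDD exceeded CH by 0.34 and Kyn exceeded CH by 0.36 (adjusted p = 2.4e-07 and 5.1e-08).

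GRWD1 (chr19:48445841-48457022, plus strand, hg38), a histone-binding WD-repeat protein of the pre-60S particle whose promoter is shown above, had 100, 98.2 and 96.7 CPM with TCDD and 84.9, 83.9 and 84.1 CPM with CH, against 111, 109 and 109 CPM in DMSO. Both groups lay below DMSO without overlap, CH further. The log2 fold changes were -0.16 ± 0.0360 with TCDD (adjusted p = 0.0028) and -0.38 ± 0.0362 with CH (adjusted p = 2.0e-10). Kyn, at 106, 103 and 105 CPM, was above CH (0.31, adjusted p = 1.8e-08). GRWD1 exons overlap those of KCNJ14 on the same strand, where reads cannot be assigned to one gene. GNL3 (nucleostemin), a nucleolar GTP-binding protein, had 148, 146 and 155 CPM with CH, against 175, 181 and 178 CPM in DMSO (-0.25 ± 0.0348, adjusted p = 5.8e-07), and was higher with TCDD than with CH (0.29, adjusted p = 2.4e-08). NOP16, a pre-60S protein, had 45.0, 44.9 and 50.1 CPM with CH, against 61.3, 52.4 and 56.3 CPM in DMSO (-0.28 ± 0.0532, adjusted p = 7.2e-05). The other called falls with CH were RRP1B, a nucleolar paralog of RRP1 (-0.20), RRS1 (-0.18), NOP2, an RNA methyltransferase (-0.16), PES1 (-0.13) and BOP1 (-0.12), whose call ended without DMSO replicate 1 (-0.08, adjusted p = 0.13).

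PES1, BOP1 and WDR12 form the PeBoW complex, which is needed to process the large-subunit RNA. BOP1 had 105, 109 and 105 CPM with TCDD, against 131, 118 and 122 CPM in DMSO, and fell (log2 fold change -0.22 ± 0.0385, adjusted p = 1.4e-04). Its partner PES1 had 199, 198 and 190 CPM with TCDD, against 205, 206 and 217 CPM in DMSO. PES1 passed narrowly (-0.10, adjusted p = 0.049), and its call ended in 15 of 20 alternatives. It ended without DMSO replicate 1 or 3, any TCDD library, Kyn replicate 2 or 3 or CH replicate 1 or 2 (highest adjusted p = 0.25), and with GC and length trends removed (0.58). WDR12, the third partner, had 58.4, 59.0 and 60.7 CPM with TCDD against 58.6, 59.0 and 58.6 CPM in DMSO and passed with neither TCDD (0.02) nor CH (0.07). WDR74, a regulator of the helicase MTREX in 60S assembly, had 43.9, 43.3 and 41.4 CPM with TCDD, against 53.4, 49.4 and 50.7 CPM in DMSO. It fell with TCDD (-0.25 ± 0.0489, adjusted p = 4.4e-04), did not pass with CH (-0.10), and was lower with TCDD than with CH (-0.15, adjusted p = 0.016), a difference that ended without TCDD replicate 3 (0.073) or CH replicate 2 (0.13) and with GC and length trends removed (-0.08, adjusted p = 0.14). RRS1, a factor for the 5S particle, had 72.8, 73.2 and 70.8 CPM with TCDD, against 83.5, 75.7 and 83.9 CPM in DMSO (-0.16, adjusted p = 0.012), a call that ended without DMSO replicate 1 (0.075), DMSO replicate 3 (0.085) or TCDD replicate 3 (0.067).

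Of the abundant nucleolar proteins, NPM1 and NCL did not pass against DMSO. NPM1 was at 0.00 on the log2 scale with TCDD and -0.02 with CH, and NCL was at -0.02 with TCDD and -0.07 with CH. The CH and DMSO libraries of NCL did not overlap, and it was called lower with CH in 3 of 20 alternatives. Between compounds the 95% interval of the NPM1 log2 difference was -0.09 to 0.03 for TCDD over Kyn, -0.04 to 0.09 for TCDD over CH and -0.01 to 0.12 for Kyn over CH. NCL was higher with Kyn than with CH (0.09, adjusted p = 0.021), a call that ended without Kyn replicate 2 (0.059), CH replicate 1 (0.093) or CH replicate 2 (0.057). NPM1 has processed copies elsewhere in the genome, so reads may be shared. DDX21, an RNA helicase that couples Pol I transcription and processing, had 547, 544 and 530 CPM with CH, against 595, 616 and 614 CPM in DMSO (-0.17). LYAR, a cell-growth nucleolar protein, had 91.8, 87.9 and 90.5 CPM with CH, against 109, 107 and 108 CPM in DMSO (-0.26 ± 0.0374, adjusted p = 1.0e-06). In both genes the CH libraries lay below every DMSO library.

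**Figure D3:**
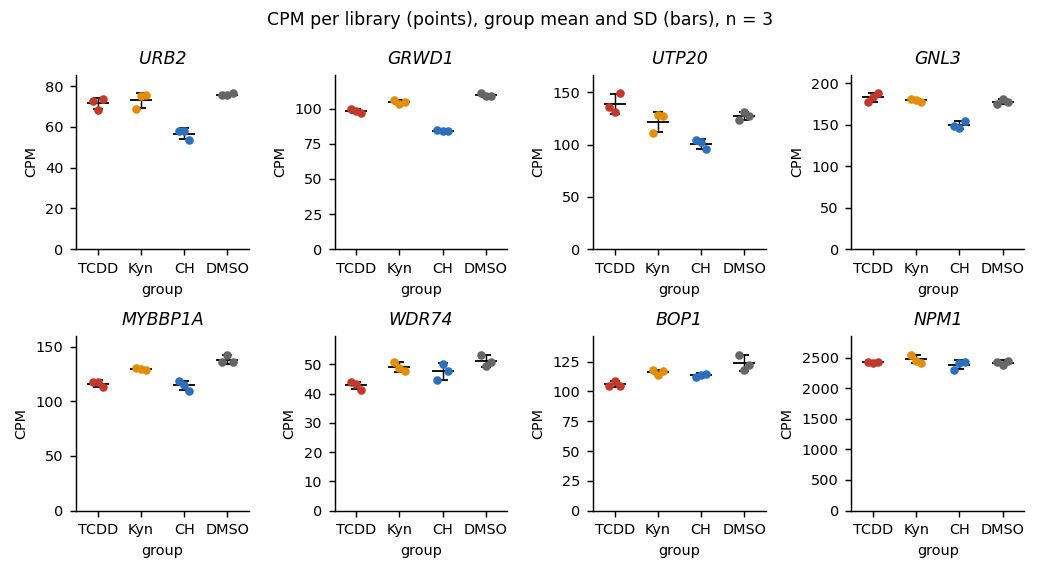
Level of 8 of the genes (CPM, linear axis, one point per library, with the group mean and SD as bars, n = 3) in the TCDD, Kyn, CH and DMSO groups. In URB2, GRWD1, UTP20 and GNL3 the CH points lie below the rest. TCDD points lie below DMSO in WDR74, and both TCDD and CH points do in MYBBP1A, BOP1, GRWD1 and URB2. NPM1 shows no such separation.

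Kyn gave no call, and its log2 fold changes ranged from -0.11 (POLR1A) to 0.06 (UTP15) over the 40 genes. POLR1A had 140, 160 and 157 CPM with Kyn, against 161, 166 and 167 CPM in DMSO, without overlap and with replicate 1 the lowest (adjusted p = 0.55, 95% interval of the log2 fold change -0.20 to -0.02). The SE of the log2 fold changes with Kyn ran from 0.0302 (NCL) to 0.179 (PPAN). At the same dose of 10 µM and 1 h, 6 pairs of groups were compared. TCDD and Kyn differed in 9 of the 40 genes, 1 higher (UTP20) and 8 lower with TCDD, where 9.19% of all tested genes were called, 5.10% higher and 4.09% lower. Their libraries did not overlap in 15 of the 40, against 26.0% of all tested genes. Beside those given above, TCDD was below Kyn in WDR74 (-0.20, adjusted p = 0.0074), RRS1 (-0.17, 0.012), BOP1 (-0.14, 0.021) and NOP14 (-0.12, 0.028). Of the 9, MYBBP1A alone held in all 20 alternatives, and the count was 1 without TCDD replicate 3, 2 without Kyn replicate 1, 4 without TCDD replicate 1 and 3 with GC and length trends removed (MYBBP1A, NOP14 and TSR1). All genes called numbered 1252 in the main fit. They numbered 576 without TCDD replicate 3, 959 without TCDD replicate 1 and 916 with the trends removed. TCDD and CH differed in 21, 18 higher and 3 lower with TCDD (WDR74, GAR1 and NOB1), where 37.1% of all tested genes were called, 19.0% higher and 18.1% lower. Without TCDD replicate 3 the count was 12. The libraries of TCDD and CH did not overlap in 26 of the 40, against 47.3% of all tested genes. Kyn and CH differed in 21, all higher with Kyn, where 33.0% of all tested genes were called and 16.6% were higher with Kyn. The largest of these were URB2 and GRWD1, given above, then UTP20 (0.28, adjusted p = 1.8e-05) and NOP16, which had 59.3, 52.7 and 56.7 CPM with Kyn against 45.0, 44.9 and 50.1 CPM with CH (0.27, adjusted p = 1.2e-04). Their libraries did not overlap in 27 of the 40, against 43.5% of all tested genes. The median log2 difference was -0.04, 0.06 and 0.10 in these 3 comparisons. Between TCDD and Kyn, the 2 agonists, 31 genes did not pass, which does not show that the compounds act alike. In POLR1A, for one, the 95% interval of TCDD over Kyn was -0.01 to 0.17.

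**Figure D4:**
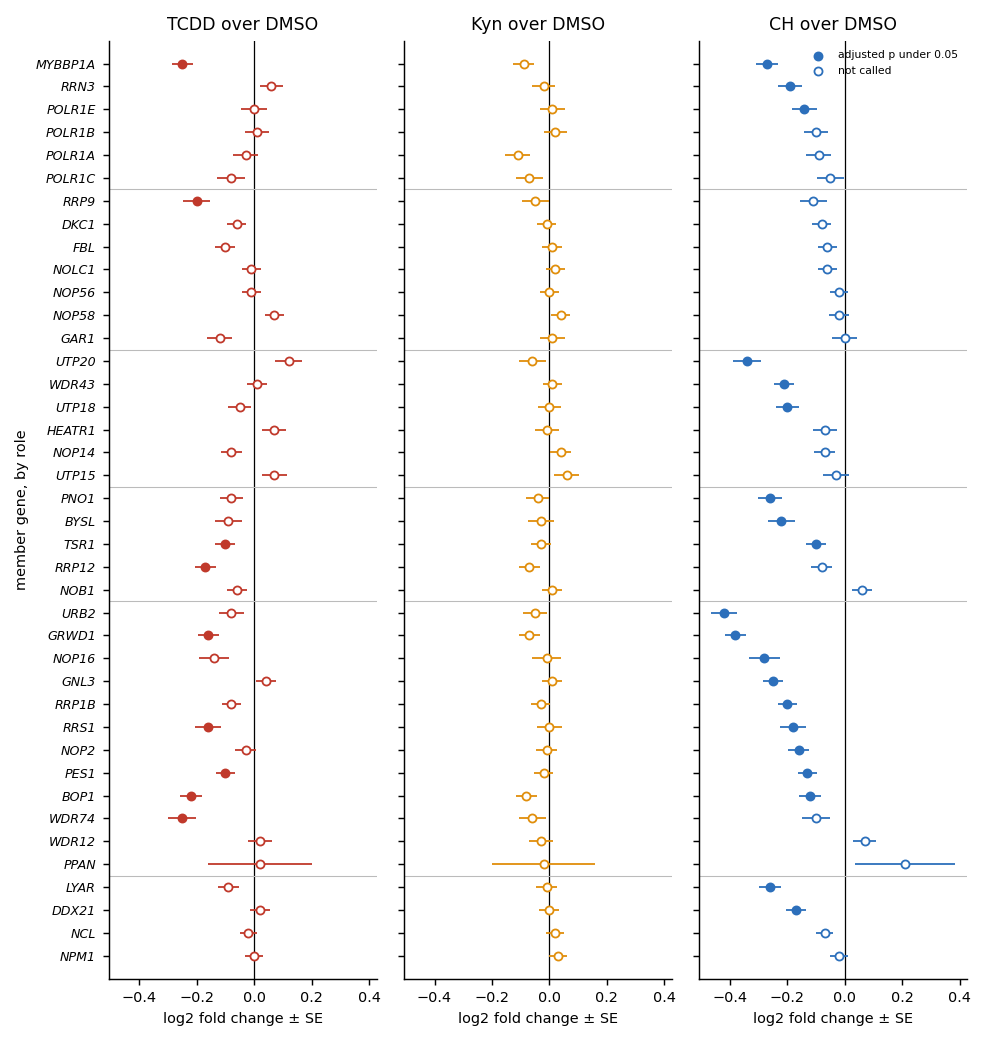
Log2 fold change of each of the 40 genes against DMSO (horizontal axis, bars are SE) with TCDD, Kyn and CH, in rows grouped by role, with filled points for calls at adjusted p under 0.05. CH points of URB2 (-0.42), GRWD1 (-0.38) and UTP20 (-0.34) lie furthest left, and Kyn points stay within -0.11 and 0.06.

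A wider list of 160 further ribosome biogenesis genes, chosen by role and with earlier results of these data known, was tested in the same fit. With CH 62 fell and 8 rose (median -0.09), with TCDD 18 fell and 3 rose (median -0.02), and with Kyn 0 passed. Over all tested genes 16.9% were lower and 15.9% higher with CH, 5.83% lower and 5.91% higher with TCDD and 0.294% called with Kyn, and the counts in the lists that follow are read against these shares. The SSU processome list had 19 of 39 lower and 0 higher with CH, with the largest fall in the helicase DHX37 (-0.37 ± 0.0405 SE, 66.4 CPM with CH against 85.7 CPM in DMSO, adjusted p = 5.9e-09) and falls in DDX47 (-0.30) and NOL11 (-0.29). In 60S assembly 25 of 55 fell and 5 rose. The falls included MRTO4 (-0.31) and BRIX1 (-0.29), and RSL24D1, a protein of pre-60S particles, rose (0.44, 219 ± 7.22 CPM with CH against 161 ± 4.59 CPM in DMSO, adjusted p = 4.0e-12). With TCDD, MDN1, an ATPase of pre-60S remodelling, rose (0.40, adjusted p = 9.7e-06), and RRP1 (-0.21) and NOC2L (-0.14) fell. Of 13 other Pol I genes 2 fell with CH, near the share over all tested genes, and 1 rose. TAF1A, a subunit of the Pol I selectivity factor, fell (-0.31, adjusted p = 4.0e-04), as did TWISTNB, a Pol I subunit (-0.12), and UBTF, the upstream binding factor, rose slightly (0.10, adjusted p = 0.021). With TCDD, BAZ2A, a subunit of the nucleolar remodelling complex, rose (0.14, adjusted p = 0.0079). The list of snoRNP and modification genes, not all of them snoRNP proteins, had 6 of 20 lower with CH, such as TRMT112 (-0.19) and NAF1 (-0.21). The exosome and RNase MRP list had 8 of 23 lower and 2 higher. The 40S list had 2 of 10 lower, near the share over all tested genes.

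Genes of the other nuclear RNA polymerases were counted beside these. Of 22 Pol III genes 11 fell and 3 rose with CH, with the subunits POLR3K at -0.33 and POLR3E at -0.30 lower and POLR3C at 0.25 higher. Of 12 Pol II subunits 4 fell and 0 rose with CH, with POLR2C at -0.20 and POLR2L at -0.21. Some of these subunits, POLR2L among them, are also part of Pol I and Pol III. With TCDD 2 of 22 and 1 of 12 fell, near the 5.83% of all tested genes. MYC itself had 149, 141 and 142 CPM with TCDD, 184, 179 and 173 CPM with Kyn and 178, 178 and 166 CPM with CH, against 170, 161 and 164 CPM in DMSO. Its level was lower with TCDD (-0.20, adjusted p = 4.1e-04) and did not pass with Kyn (0.12, adjusted p = 0.31) or with CH (0.08, adjusted p = 0.099). MYC was thus lower in the group in which 9 of the 40 genes fell and was not called in the group in which 20 fell. Whether MYC had a part in these changes was not tested.

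RNAs of the ribosomal DNA are poorly captured by libraries made from poly(A) RNA, so their counts are described and not read as Pol I output. RNA45S5, the precursor, had 3.30, 5.24 and 3.21 CPM with TCDD and 3.13, 2.64 and 4.05 CPM with CH, against 6.45, 3.40 and 4.22 CPM in DMSO. It was lower with CH (-0.53, adjusted p = 0.026) though the CH and DMSO libraries overlapped, and the call ended without DMSO replicate 1 (-0.24, adjusted p = 0.37), CH replicate 1 (0.077) or CH replicate 2 (0.17) and in DESeq2 (0.18). RMRP, the RNA of RNase MRP, is also poorly captured by such libraries, and its counts are only described. It had 5.98, 9.78 and 6.45 CPM with TCDD, against 2.90, 2.71 and 4.26 CPM in DMSO. RMRP was called higher with TCDD (1.16, adjusted p = 2.0e-05). The Kyn libraries, at 3.56, 5.01 and 6.91 CPM, overlapped both groups. RNA28S5, the large-subunit RNA, had 83.5, 103 and 63.7 CPM with TCDD, against 72.8, 47.6 and 63.2 CPM in DMSO. It was called higher (0.45, adjusted p = 0.0083) though the groups overlapped, and the call ended without DMSO replicate 2 (0.29, adjusted p = 0.074) or TCDD replicate 2 (0.27, 0.14) and in DESeq2 (0.19). RNA18S5 had 98.9 CPM in DMSO replicate 1 against 0.615 and 0.514 CPM in the other DMSO libraries, so its values turn on that library. SNORD118, the U8 snoRNA, was listed at 0 in every library.

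GC content moved with the TCDD result. The 9 genes lower with TCDD had a median transcript GC of 58.7% (46.7 to 65.6%), against 46.7% in the 31 not called, and among all tested genes those lower with TCDD also had 58.7%, those higher 42.8% and those not called 48.4%. Among the 21 members above the median GC of tested genes (48.6%) 8 fell with TCDD and the median was -0.09, while among the 19 below it 1 fell and the median was 0.01. All tested genes had medians of -0.05 above and 0.04 below that value. With GC and length trends removed, 7 members were lower with TCDD, with the calls of RRS1 (-0.10, adjusted p = 0.091), PES1 (-0.03, 0.58) and RRP9 (-0.11, 0.095) ended and LYAR gained. All genes lower with TCDD numbered 494 in that setting, against 794 in the main fit. Of the calls that held, MYBBP1A was at -0.18 (-0.25 before), WDR74 at -0.17 (-0.25), BOP1 at -0.11 (-0.22), RRP12 at -0.11 (-0.17) and GRWD1 at -0.10 (-0.16), all smaller, and TSR1 was at -0.12 (-0.10). With CH the falls were spread over both sides, 11 of 21 above (median -0.12) and 9 of 19 below (median -0.10). Over all tested genes the medians with CH were -0.02 above and 0.01 below. The share of all tested genes called on each side is not given here for either compound. With the trends removed 25 members fell with CH. All genes lower with CH numbered 2586 with the trends removed, against 2299 in the main fit. The part of GC content in the TCDD result was not tested beyond this.

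**Figure D5:**
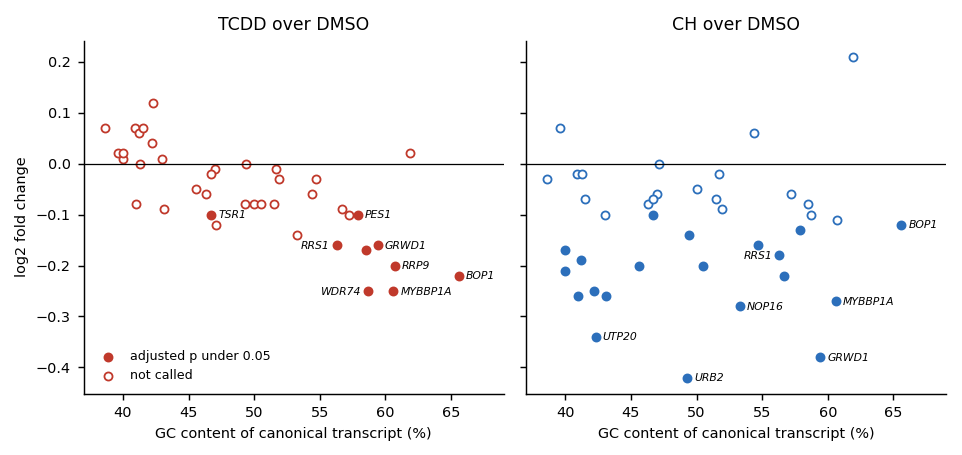
Log2 fold change with TCDD and with CH against transcript GC content (percent) for the 40 genes, one point per gene, filled where called. Points called lower with TCDD lie mostly above the median GC of 48.6% (8 of 9), and those called lower with CH lie on both sides (11 above and 9 below).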

How the data were processed

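The 12 libraries were poly(A) RNA of DLD1 cells. The deposited values are raw counts of reads per gene made by the authors with HTSeq on hg38, per the submitters' processing notes, which also name Trim Galore, STAR 2.7.2b and SAMtools 1.9 (the labels' protocol text gives STAR 2.5.2b). The aligner and HTSeq settings, including strand, are not given in the sources used here, and opposite-strand neighbours (PES1 with TCN2, MYBBP1A with SPNS2, GNL3 with GLT8D1 and HEATR1 with LGALS8, among others) may share reads. Rows that name no gene (20.3 to 23.6% of reads) were left out.

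The test was edgeR 4.0.16 (quasi-likelihood F test) under R 4.3.3, with limma 3.58.1 as its base. Genes under the filterByExpr limit (minimum count 10) were dropped, which left 13619, and libraries were scaled by TMM (0.988 to 1.02). All 12 libraries entered 1 fit with a coefficient for each of the 4 groups, without a block. Intervals of 95% came from the same fit. P-values were adjusted by Benjamini-Hochberg over all tested genes in each comparison. CPM values used the scaled totals. TPM used the length of the GENCODE 44 canonical transcript. DESeq2 1.42.0, other scalings and filters, a replicate block, removal of GC and length trends and each library left out were the alternatives. All 40 members are named. By size of change, up to 8 called per direction against DMSO and up to 4 between compounds are given with their values, values of further members were added after they were seen, and further lists are named by up to 3 of smallest p each, with MYC, UBTF and CYP1A1 in every case. The members and gene lists were chosen with earlier results of these data known.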

Additional observations from a re-analysis of the deposited data

How the results depend on the processing

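The directions of the calls named above held in every alternative in which the gene was tested, and the exception is RNA18S5, whose value against DMSO changed from -2.84 to 3.02 (adjusted p = 0.049) with TCDD and from -3.58 to 2.26 with CH without DMSO replicate 1, and ranged from -4.52 (without TCDD replicate 2) and -5.90 (without CH replicate 2) to those values. Over 20 alternatives, 5 of 9 member calls of TCDD against DMSO, 17 of 20 of CH against DMSO, 1 of 9 of TCDD against Kyn, 11 of 21 of TCDD against CH and 17 of 21 of Kyn against CH held in each. With a library left out, the members called ranged from 5 to 13 for TCDD, 19 to 22 for CH, 1 to 9 for TCDD against Kyn, 12 to 23 for TCDD against CH and 18 to 23 for Kyn against CH, and 24 to 29 over the 4 groups. The low values came without DMSO replicate 1 (5, TCDD against DMSO), TCDD replicate 3 (1 and 12), TCDD replicate 1 (4) and Kyn replicate 1 (2), the last 2 for TCDD against Kyn. The median over members ranged from -0.07 to -0.04 for TCDD, -0.02 to -0.01 for Kyn, -0.12 to -0.10 for CH, -0.05 to -0.04 for TCDD against Kyn, 0.05 to 0.07 for TCDD against CH and 0.09 to 0.11 for Kyn against CH. All genes called ranged from 805 to 1912 for TCDD, 30 to 44 for Kyn and 576 to 1323 for TCDD against Kyn. They ranged from 3510 to 4743 for CH, 4125 to 5318 for TCDD against CH and 3577 to 4559 for Kyn against CH.

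With library totals alone the median was -0.08 for CH against DMSO, 0.04 for TCDD against CH and 0.07 for Kyn against CH. With GC and length trends removed it was -0.05 for TCDD against Kyn, with 3 members called (916 of all genes, against 1252), and 0.07 for TCDD against CH. The genes called with Kyn against DMSO numbered 65 with no low-count filter, 26 with only the 2 groups compared and 68 with GC and length trends removed, against 40. No pairing by replicate number was visible. Deviations of libraries with the same number correlated at -0.0554 to 0.0371 and those with other numbers at -0.0528 to 0.0832. These values cannot show whether libraries with the same number were handled together. With a replicate block 7 members were called with TCDD, 0 with Kyn and 20 with CH, and 7, 20 and 21 for TCDD against Kyn, TCDD against CH and Kyn against CH. All genes called with the block numbered 1537, 38 and 4366 against DMSO, and 1197, 4948 and 4386 between compounds, in the same order. The cause of these changes was not tested. Depth limits PPAN, with 44 to 69 reads per library.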
